A study of Mus musculus with 7 samples.

Results

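The trefoil factors Tff1 and Tff2 and the gastrokines Gkn1, Gkn2 and Gkn3 were followed through single wells, cell classes and plates of mouse gastric epithelium. They are 5 of the 18907 features besides spike-in RNAs in the count tables, taken by gene name, and they were read in the 2235 of 2688 wells that held at least 1000 unique molecular identifiers (UMIs, each marking 1 captured transcript).

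Trefoil factors are small secreted peptides that leave mucous cells together with mucins and help the surface epithelium to close over damage. Gastrokines are stomach-specific secreted proteins with a BRICHOS domain. In textbook stomach, Tff1 belongs with the mucin Muc5ac to surface mucous (pit) cells, where its product binds that of Gkn2, while Tff2 belongs with the mucin Muc6 to mucous neck and gland cells. Gkn3 is known from mouse mucous neck cells.

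Glands from wild-type C57BL/6 mice were broken to single cells, and living cells were sorted into 384-well plates for SORT-seq, which reads a transcript from its 3' end. There were 3 plates from the pylorus, the outlet of the stomach, and 4 from the corpus, its acid-producing main body. All plates shared strain and genotype, no treatment was given, and the labels state neither age nor which plates share an animal, so every p-value below measures the spread between plates. Pylorus replicates 1 to 3 gave 250, 364 and 369 kept wells with medians of 8240, 20326 and 23400 UMIs, and corpus replicates 1 to 4 gave 278, 279, 361 and 334 wells with medians of 6899, 19648, 25381 and 25545 UMIs.

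The library labelled corpus replicate 1 stood apart. It held 3340 UMIs of the antral hormone gene Gast in 138 wells, while the other 6 plates, pylorus included, held 0, which allows at most 1.15 CPM (UMIs per 1000000 UMIs of the plate) in the shallowest of them. It also had 6 chief-like cells, which mark the corpus, beside 49, 61 and 64 in the pylorus plates and 77, 40 and 27 in corpus replicates 2 to 4. Acid-making parietal-like cells numbered 2, 12 and 20 in the pylorus plates and 3, 4, 56 and 42 in the corpus plates. Neither Gast nor the acid and pepsinogen cells separated the plates by their labels, and results that rest on corpus replicate 1 are given with and without it. Clustering also set pylorus replicate 1 and corpus replicates 1 and 2 apart from the other 4 plates, called the 4 similar plates here: pylorus replicates 2 and 3 and corpus replicates 3 and 4.

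In the RefSeq order of genes, Gkn1, Gkn2 and Gkn3 are neighbours on chromosome 6 with 0 coding genes between them, and Tff2 and Tff1 follow Tff3 on chromosome 17 in the same way. The 250 bases before the gene start (RefSeq, GRCm38.p6) were held for 3 of the 5 members. They are shown 5' to 3' on the gene's strand because Gkn1 and Gkn2 were high in the same wells, as described below, while their neighbour Gkn3 was high in others. Capitals mark GATAA or its complement TTATC, the core bound by GATA factors, and TATAAA or its complement TTTATA, the TATA box.
Gkn1 (chr6:87350916-87351165, minus strand): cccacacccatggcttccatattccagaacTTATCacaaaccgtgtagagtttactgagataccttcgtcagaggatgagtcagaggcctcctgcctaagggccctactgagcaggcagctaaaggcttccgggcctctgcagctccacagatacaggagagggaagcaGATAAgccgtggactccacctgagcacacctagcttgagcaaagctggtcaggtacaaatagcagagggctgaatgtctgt
Gkn2 (chr6:87373115-87373364, plus strand): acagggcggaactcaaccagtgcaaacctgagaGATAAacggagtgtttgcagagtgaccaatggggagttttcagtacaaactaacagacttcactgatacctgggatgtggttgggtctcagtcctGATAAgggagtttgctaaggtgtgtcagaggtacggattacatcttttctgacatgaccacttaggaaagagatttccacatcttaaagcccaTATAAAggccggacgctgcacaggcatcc
Gkn3 (chr6:87388936-87389185, minus strand): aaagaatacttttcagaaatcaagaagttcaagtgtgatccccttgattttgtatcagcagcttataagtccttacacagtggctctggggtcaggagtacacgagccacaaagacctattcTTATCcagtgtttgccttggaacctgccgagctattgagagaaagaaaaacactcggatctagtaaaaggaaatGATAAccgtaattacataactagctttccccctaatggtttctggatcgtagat
Each of the 3 held 2 GATA motifs, at 220 and 81 bases before the start in Gkn1, 217 and 122 in Gkn2, and 128 and 54 in Gkn3. A TATA box stood only in Gkn2, at 29 bases before the start. Of 32841 mouse promoter windows of that length, 22.6% held a GATA motif and 12.4% a TATA box on either strand. The motif TGTTTAC of FOXA factors, in 3.17% of windows, was in 0 of the 3, and CACCC of KLF factors, in 52.0%, was in Gkn1 alone at 246 bases and is not capitalised. The printed matches did not overlap. Position by position, Gkn1 and Gkn2 shared 24.8% of their bases, Gkn1 and Gkn3 26%, and Gkn2 and Gkn3 25.6%.

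Cells were sorted into classes by clustering without the 5 members, and classes were named from markers that hold none of them. This gave 463 pit-like, 478 neck-like, 324 chief-like, 281 endocrine-like, 146 proliferating-like, 139 parietal-like, 115 immune-like and 52 tuft-like cells. A further 237 cells stayed unnamed, 206 of them in cluster 6, led by Ano1, Hells, Tff2 and Cxcl17. Cluster 6 came nearest to the pit markers, with a mean log2 excess of 0.469 where a name needed 0.5. At a clustering resolution of 0.5, a matching cluster of 287 cells reached 0.507 and counted as pit-like. Immune-, tuft-, endocrine- and parietal-like cells make no mucus, so their pooled level in the same plate served as the background. Neck-like cells came from clusters 0, 1 and 17 and pit-like cells from clusters 2, 4, 5 and 16. The 173 cells of cluster 1 were named by neck markers at 1.90 and also held 4 chief markers at 1.21. Clusters 1, 2 and 5 lay mostly in pylorus replicate 1 and corpus replicates 1 and 2, clusters 4, 16 and 17 in the 4 similar plates, and the 19 cells of cluster 0 in corpus replicate 1 alone.

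The 5 genes took a large part of the transcriptome: together 8.27%, 8.57% and 6.91% of all UMIs in the pylorus plates, and 7.92%, 1.77%, 5.82% and 7.68% in corpus replicates 1 to 4. Corpus replicate 2, with 24 pit-like cells, was the low plate. In sums over all kept cells, Tff1 stood at 26287, 32386 and 26246 CPM in pylorus plates, against 23948, 6352, 24415 and 32334 in corpus plates. Gkn1 stood at 16608, 16552 and 14559 CPM in pylorus plates, against 8624, 2675, 10411 and 14606 in corpus plates. The regions overlapped for Gkn1 at 1 value, since the highest corpus plate lay just above the lowest pylorus plate. Gkn2, whose product pairs with that of Tff1, had 32510, 29504 and 22227 CPM in pylorus plates, against 20462, 4950, 18498 and 23991 in corpus plates. In such sums, fewer cells of a type and less RNA per cell cannot be told apart.

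For Tff2 and Gkn3 a single library stood far above the others. Tff2 stood at 7100, 7166 and 6053 CPM in pylorus plates, against 21936, 3157, 4813 and 5601 in corpus plates. Gkn3 stood at 180, 97.2 and 63.2 CPM in pylorus plates, against 4269, 516, 92.9 and 292 in corpus plates. The library labelled corpus replicate 1 was the highest for both. With it, Tff2 averaged 6773 ± 624 CPM in pylorus plates (SD, n = 3) and 8877 ± 8766 in corpus plates (SD, n = 4), and without it 4524 ± 1248 in corpus plates (SD, n = 3). Gkn3 averaged 114 ± 60.3 in pylorus plates and 1293 ± 1992 in corpus plates, or 300 ± 212 without that library.

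**Figure D1:**
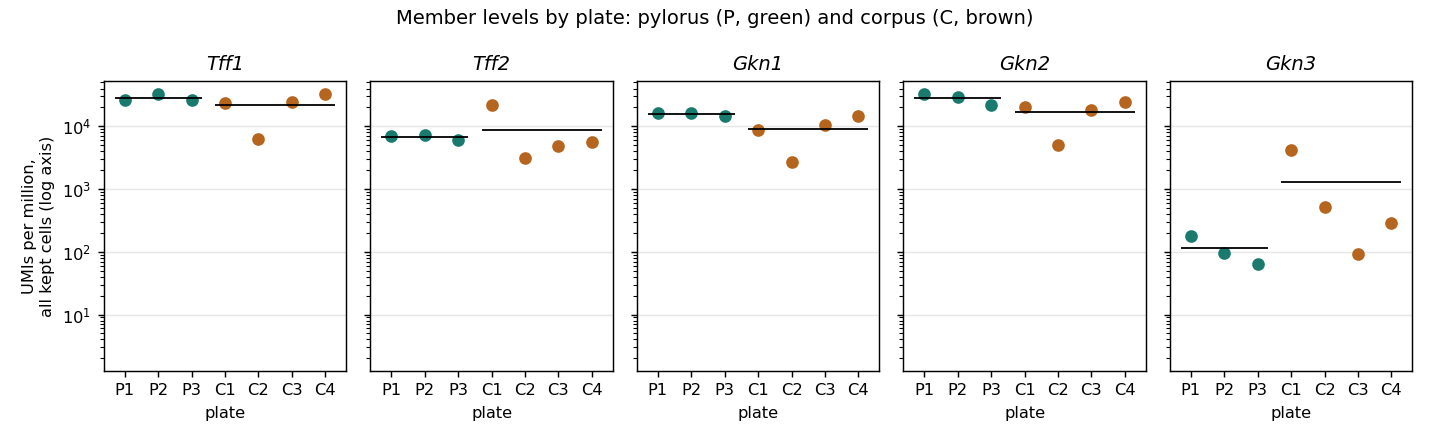
Level of each member in sums over all kept cells, in CPM on a log axis, with 1 point per plate (P, pylorus replicates 1 to 3; C, corpus replicates 1 to 4) and the mean of each region as a line. Corpus replicate 1 lies highest for Tff2 (21936) and Gkn3 (4269), and corpus replicate 2 lies lowest for Tff1, Tff2, Gkn1 and Gkn2.

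Tff1, Gkn1 and Gkn2 had their highest level in pit-like cells in 7 of 7 plates. Pit-like cells were 17.7% of the cells of a plate at the median and held 59.2% of its Tff1, 74.5% of its Gkn1 and 67.4% of its Gkn2 UMIs. Tff1 reached 55019, 71578 and 64771 CPM in pit-like cells of pylorus plates and 38618, 35432, 65982 and 66512 in those of corpus plates. Gkn1 reached 36884, 44662 and 44852 in pylorus plates and 15547, 16392, 36002 and 38867 in corpus plates. Gkn2 reached 68991, 69030 and 61763 in pylorus plates and 35251, 26973, 57155 and 57067 in corpus plates. For Gkn2 all pylorus plates lay above all corpus plates, and how many other genes separate the plates in this way was not counted. For Gkn1 the regions overlapped by 1 plate, and for all 3 genes corpus replicates 1 and 2 were the low plates. The make-up of the pit-like class differed between plates. Cluster 2 gave 71 of 113 and 21 of 24 pit-like cells in corpus replicates 1 and 2. In pylorus replicate 1 it gave 57 of 94, and in the 4 similar plates at most 1 cell each. Cluster 2 held 27472 CPM of Tff1, 9561 of Gkn1 and 21462 of Gkn2, and cluster 5 held 63964, 40620 and 74406. The part of this mix in the plate levels was not tested.

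Against the background of the same plate, pit-like cells held a median of 9.61 times as much Tff1 (range 5.82 to 52.9 over 7 plates), 24.9 times as much Gkn1 (16.3 to 146) and 12.4 times as much Gkn2 (8.19 to 45.1). Pit-like exceeded neck-like cells by 3.75 ± 1.16 on the log2(CPM + 2) scale for Tff1, by 5.15 ± 1.09 for Gkn1 and by 3.95 ± 0.93 for Gkn2 (SD, n = 7 plates). All 7 plates went this way for each of the 3 genes. The two-sided exact sign-flip permutation test gave p = 0.0156 for each, the smallest that 7 plates allow, and an adjusted p of 0.0586 over 15 contrasts, which does not pass 0.05.

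The 3 genes were not confined to the pit-like class. Proliferating-like cells held 32990 ± 9553 CPM of Tff1, 14065 ± 7380 of Gkn1 and 24025 ± 9089 of Gkn2 (SD, n = 6 plates). These were 5.20, 8.65 and 4.75 times the background at the median, above it in 6 of 6 plates for each. The proliferating-like cluster scored 3.41 on its own markers and also 0.52 on 7 pit markers. Its wells were mixed. Over 6 plates, Tff1 made up 0.158% to 0.841% of UMIs at the 10th percentile of wells and 4.13% to 7.31% at the 90th. Cluster 6 held 27853 ± 3917 CPM of Tff1, 11153 ± 2934 of Gkn1 and 17532 ± 4654 of Gkn2 (SD, n = 4 plates), which were 3.49, 6.23 and 3.02 times the background at the median and above it in 4 of 4 plates.

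In neck-like cells, which make Muc6 mucus, the 3 pit genes stood at the level of the background. The median ratio to background was 1.02 for Tff1 (range 0.888 to 1.14), 0.974 for Gkn1 and 0.976 for Gkn2, with 4, 3 and 3 of 7 plates above background. Chief-like cells, which secrete pepsinogen, lay above the background for these genes in 6 of 6 plates, with median ratios of 2.08 for Tff1, 2.12 for Gkn1 and 2.14 for Gkn2. Neck-like minus chief-like log2 differences were -0.93 ± 0.19 for Tff1, -0.89 ± 0.28 for Gkn1 and -0.97 ± 0.19 for Gkn2 (SD, n = 6 plates). Neck-like cells were lower in 6 of 6 plates (exact sign-flip permutation p = 0.0313 for each, the smallest that 6 plates allow; adjusted p = 0.0586).

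The chief-like excess was smaller after a correction for repeated UMIs. A 6-base UMI has 4096 sequences, so the most abundant genes of a well repeat them and are undercounted, and the correction raises such genes relative to the others of the well. With it the chief-like median ratios to background were 1.16 for Tff1, 1.12 for Gkn1 and 1.17 for Gkn2, above background in 4 of 6 plates for each. Neck-like minus chief-like was then -0.23 ± 0.19 for Tff1 (exact permutation p = 0.0625; lower in 5 of 6 plates), -0.14 ± 0.26 for Gkn1 (p = 0.25; 4 of 6) and -0.26 ± 0.19 for Gkn2 (p = 0.0313; 6 of 6; SD, n = 6 plates). The corrected neck-like ratios were 0.940, 0.903 and 0.927 for Tff1, Gkn1 and Gkn2. The corrected pit-like ratios were 14.5 for Tff1 and 18.0 for Gkn2 at the median and at least 20.6 in each plate for Gkn1.

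The background was not uniform. Tff1 averaged 7996 CPM in parietal-like and 11031 in immune-like cells, whose median depths over all plates were 35640 and 3691 UMIs. The parietal-like minus immune-like log2 difference was -0.49 ± 0.20 for Tff1, -0.42 ± 0.18 for Tff2, -0.64 ± 0.28 for Gkn1 and -0.51 ± 0.20 for Gkn2 (SD, n = 4 plates). All 4 plates were negative for each, with an exact permutation p of 0.125, the smallest that 4 plates allow. Gkn3 gave 0.66 ± 0.97 (exact p = 0.25). Depth moved with these differences, and its part in them was not tested. Wells under 1000 UMIs, left out of all other values, held Tff1 at 17980, 31427 and 32453 CPM in pylorus plates and 17239, 6361, 26191 and 41360 CPM in corpus plates, above the pooled background in each plate.

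**Figure D2:**
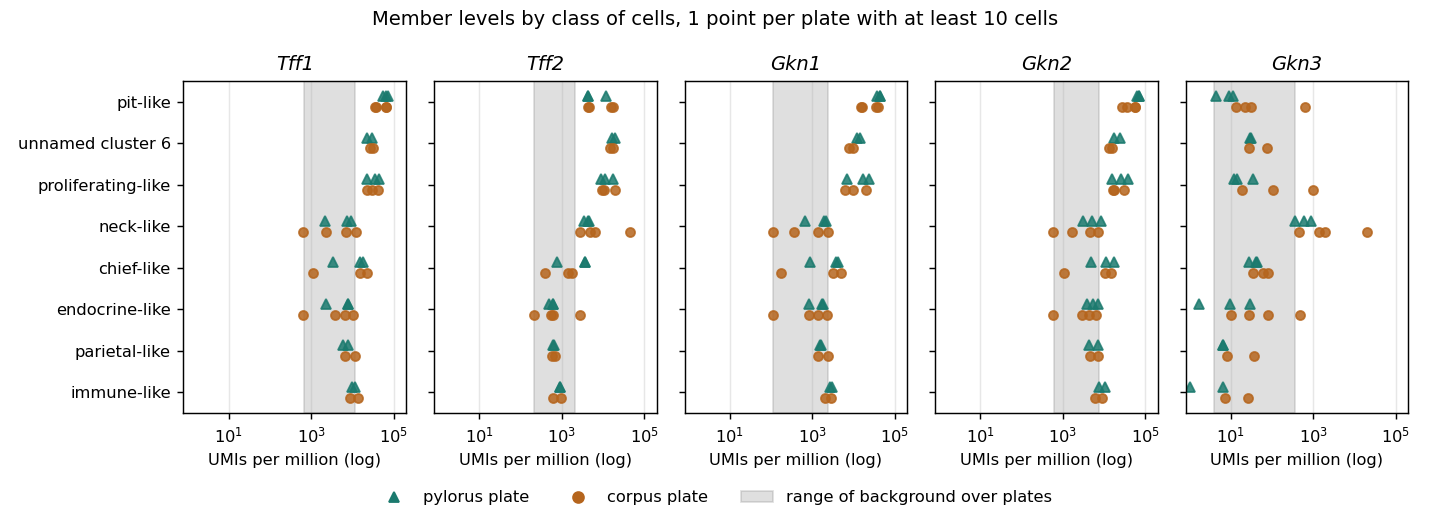
Level of each member by cell class in CPM on a log axis, 1 point per plate with at least 10 cells of the class (triangles, pylorus; circles, corpus), with the range of the same-plate background over the 7 plates in grey and values under 1 drawn at 1. Tff1, Gkn1 and Gkn2 lie right of the grey band in pit-like cells and inside or near it in neck-like cells, where Gkn3 has its highest values.

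Gkn3 was the neck-like member. Neck-like cells were 22.2% of the cells of a plate at the median and held 85.1% of its Gkn3 UMIs (range 72.3% to 94.2%). Gkn3 stood at 862, 583 and 366 CPM in neck-like cells of pylorus plates and at 20414, 1918, 442 and 1368 in those of corpus plates. Leaving out the 19 cells of cluster 0 lowered corpus replicate 1 to 10508, still the highest plate. The median ratio to background was 56.9 (range 32.2 to 95.4, 7 of 7 plates).

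In pit-like cells Gkn3 stood at 4.46, 11.1 and 9.21 CPM in pylorus plates and 610, 22.0, 13.5 and 31.3 in corpus plates. Background was 19.9, 6.75 and 3.84 in pylorus plates and 359, 29.9, 7.92 and 42.5 in corpus plates, so pit-like cells lay above it in 4 of 7 plates and by at most 2.40 times. Pit-like minus neck-like was -5.60 ± 0.81 on the log2 scale, negative in 7 of 7 plates (exact sign-flip permutation p = 0.0156; adjusted p = 0.0586). Without corpus replicate 1 it was -5.69 ± 0.85 over 6 plates. Neck-like exceeded chief-like cells by 4.07 ± 0.64 in 6 of 6 plates (exact p = 0.0313; adjusted p = 0.0586).

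Gkn3 was also concentrated within the neck-like class. Wells in which it made up at least 0.5% of UMIs numbered 2, 2 and 1 in pylorus plates and 44, 8, 2 and 8 in corpus plates, 67 in all. Of these, 63 were neck-like: 40 of 44 in corpus replicate 1 and 23 of 23 in the other 6 plates, which held 415 neck-like wells. The rich wells held 63.1%, 55.2% and 9.28% of the Gkn3 UMIs of pylorus plates and 86.0%, 66.0%, 51.2% and 58.5% of those of corpus plates. As a share of kept wells they made up 0.8%, 0.549% and 0.271% in pylorus plates and 15.8% (95% Wilson interval 12.0% to 20.6%, counting error only), 2.87%, 0.554% and 2.40% in corpus plates.

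Gkn3-rich neck-like wells differed from other neck-like wells in some genes besides Gkn3. Muc6, the gland mucin, stood at 548 CPM in 5 rich wells of pylorus plates against 361 in 182 others, at 1124 in 18 rich wells of corpus replicates 2 to 4 against 702 in 210 others, and at 1760 in 40 rich wells of corpus replicate 1 against 802 in 23 others. The water channel gene Aqp5 stood at 177 against 37.8 in pylorus plates, 201 against 36.2 in corpus replicates 2 to 4 and 880 against 66.8 in corpus replicate 1. Aqp5 and the elastase gene Cela1 were picked after their values in cluster 0 were seen. Cluster 0 is part of the neck-like wells of corpus replicate 1 and held 36139 CPM of Gkn3. The differences of that plate in genes picked this way were therefore partly set by the choice. In the rich wells of pylorus plates Aqp5 rests on 10 UMIs and Cela1 on 23. Cela1 stood at 407 against 134, 569 against 67.9, and 5033 against 120 in the same 3 sets of plates. The tight junction gene Cldn2, picked in the same way, stood at 657 against 26.7 in corpus replicate 1, while the rich wells of the other plates held 0 UMIs, which allows up to 53.0 CPM in pylorus plates and 8.05 in corpus replicates 2 to 4. Not every gene went 1 way in the 3 sets of plates. The mucin glycosyltransferase gene A4gnt stood at 1008 against 366 in pylorus plates and 1097 against 609 in corpus replicates 2 to 4. In corpus replicate 1 it went the other way, with 943 against 1022. Tff2 stood at 5798 against 4081 in pylorus plates, 3770 against 4839 in corpus replicates 2 to 4 and 55040 against 21050 in corpus replicate 1. Tff1 differed little, with 5957 against 7249, 6811 against 6737, and 2149 against 2839. The pit mucin gene Muc5ac was lower in the rich wells of corpus plates. It stood at 34.9 against 75.6 in corpus replicates 2 to 4 and 87.4 against 114 in corpus replicate 1. Rich wells of pylorus plates held 0 UMIs of it, which allows up to 53.0 CPM, against 34.1 in the others. These are pooled wells with no test, and pylorus rests on 5 of them. Corpus replicates 2 to 4 pool 76 cells of cluster 1 from replicate 2 with 77 and 74 of cluster 17 from replicates 3 and 4.

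**Figure D3:**
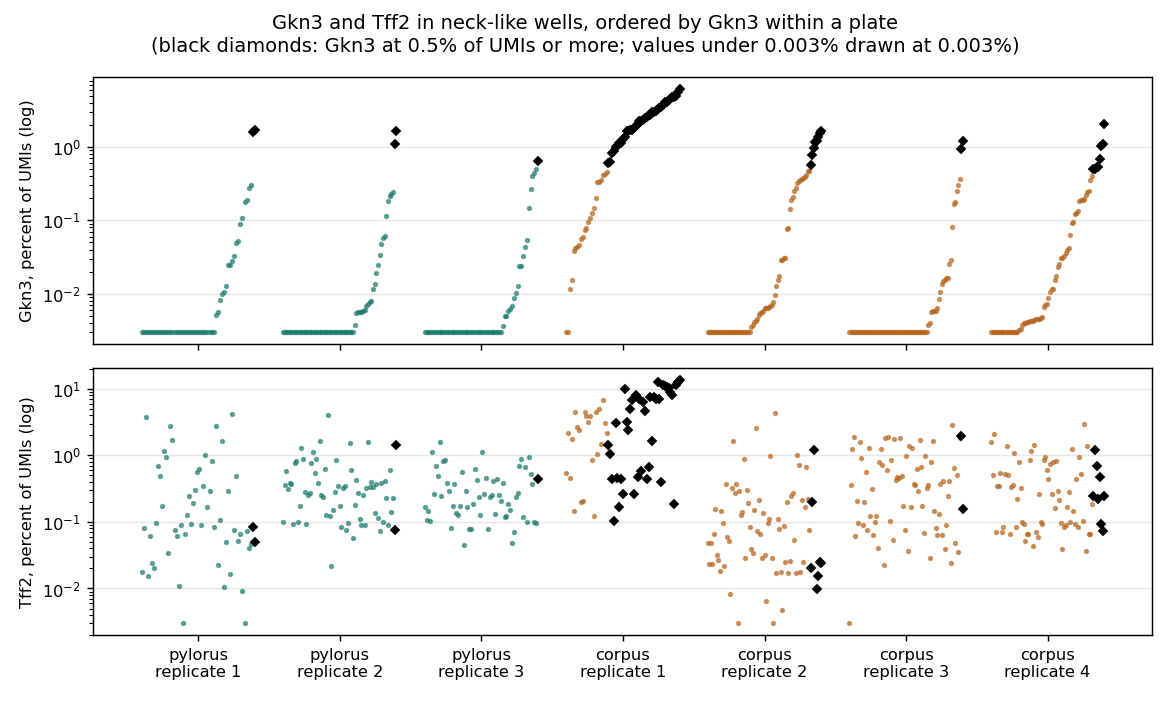
Gkn3 (top) and Tff2 (bottom) as a percentage of UMIs, log axes, in each neck-like well, ordered by Gkn3 within each plate, with wells at 0.5% Gkn3 or more as black diamonds and values under 0.003% drawn at 0.003%. Corpus replicate 1 has 40 such wells and the other plates have 1 to 8 each, and of the 23 outside corpus replicate 1 only 4 reach 1% Tff2.

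Tff2 had no single class. The top class was cluster 6 in pylorus replicates 2 and 3 and corpus replicates 3 and 4, the only plates where it had at least 10 cells. It had 0 cells in pylorus replicate 1 and 1 and 3 in corpus replicates 1 and 2, so it was not ranked there. In those plates the top class was proliferating-like cells in pylorus replicate 1, neck-like cells in corpus replicate 1 and pit-like cells in corpus replicate 2. Corpus replicate 2 had 4 proliferating-like cells, which were not ranked either. Cluster 6 held 20103 and 17105 CPM in pylorus replicates 2 and 3 and 14579 and 17851 in corpus replicates 3 and 4, a median of 26.1 times the background (range 17.5 to 29.6). Proliferating-like cells held 13131 ± 4695 (SD, n = 6 plates), 15.6 times the background at the median.

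Neck-like cells held 4283, 4703 and 3441 CPM of Tff2 in pylorus plates and 44474, 2709, 6541 and 4776 in corpus plates, where corpus replicate 1 had 17972 without cluster 0. The median ratio to background was 7.42 in neck-like and 7.45 in pit-like cells, above 1 in 7 of 7 plates for both. Pit-like minus neck-like was 0.31 ± 1.30 on the log2 scale (range -1.36 to 2.53; positive in 3 of 7 plates; exact sign-flip permutation p = 0.594). It moved with the clustering, to 1.07 at resolution 0.5, where cluster 6 counts as pit-like (6 of 7 plates positive; exact p = 0.0781), 0.78 at resolution 2.0 (6 of 7) and 0.71 with the members kept in the clustering (6 of 7), and none of these passed. Without corpus replicate 1 it was 0.59 ± 1.18, positive in 3 of 6 plates. Of the 535 wells in which Tff2 made up at least 1% of UMIs, 181 were pit-like, 161 unnamed, 94 proliferating-like and 92 neck-like. Without corpus replicate 1 the counts were 92 pit-like, 159 unnamed, 42 proliferating-like and 49 neck-like.

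Across wells the members fell into the same groups. Spearman correlations were taken within each plate on wells thinned to 1000 UMIs, and they describe wells that share a library, its free RNA and a fixed total. Over all kept wells the median correlation was 0.772 for Tff1 with Gkn2 (range 0.387 to 0.818 over 7 plates), 0.752 for Tff1 with Gkn1 and 0.716 for Gkn1 with Gkn2. Tff2 had 0.296 with Tff1, 0.249 with Gkn1 and 0.194 with Gkn2. Gkn3 lay between -0.087 and 0.041 at the median with each of the other 4. Wells without mucus carried part of the pattern, with 0.307 for Tff1 with Gkn1, 0.360 for Tff1 with Gkn2 and 0.237 for Gkn1 with Gkn2.

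Within pit-like wells Gkn1 and Gkn2 went together with a median correlation of 0.824 (range 0.264 to 0.959), Tff1 and Gkn2 with 0.629 and Tff1 and Gkn1 with 0.594. Tff2 ran the other way: -0.494 with Gkn1 (range -0.728 to -0.339), -0.434 with Gkn2 (-0.635 to -0.068) and -0.323 with Tff1 (-0.603 to -0.175), negative in all 7 plates for each. Since the 3 pit genes take a large part of each well's total, Tff2 was also set against them per non-member UMI, a choice made after seeing the data. The medians were then -0.461 for Gkn1, -0.298 for Gkn2 and -0.285 for Tff1, negative in 7 of 7 plates for each, beside -0.528, -0.382 and -0.383 as shares of all UMIs without thinning.

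The summed pit markers, of which Muc5ac is the main mucin, were set against the members in pit-like wells. Their median correlation was 0.394 with Gkn1 (positive in 7 of 7 plates), 0.228 with Gkn2 (7 of 7) and 0.174 with Tff1 (range -0.068 to 0.653; negative in 2 of 7), and it was -0.332 with Tff2 (negative in 6 of 7 plates). The pit-like clusters differed in both Tff2 and Tff1. Cluster 4, led by interferon-induced genes such as Ifit1 and Isg15, held 2767 CPM of Tff2 beside 70319 of Tff1, while cluster 16 in the same plates held 6137 beside 63668. In the other plates cluster 5 held 8999 of Tff2 beside 63964 of Tff1, while cluster 2 held 19550 beside 27472. In neck-like wells Gkn3 followed Muc6 weakly, with a median correlation of 0.184 (range 0.124 to 0.360), and Tff2 with Gkn3 had -0.037 (range -0.283 to 0.474).

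**Figure D4:**
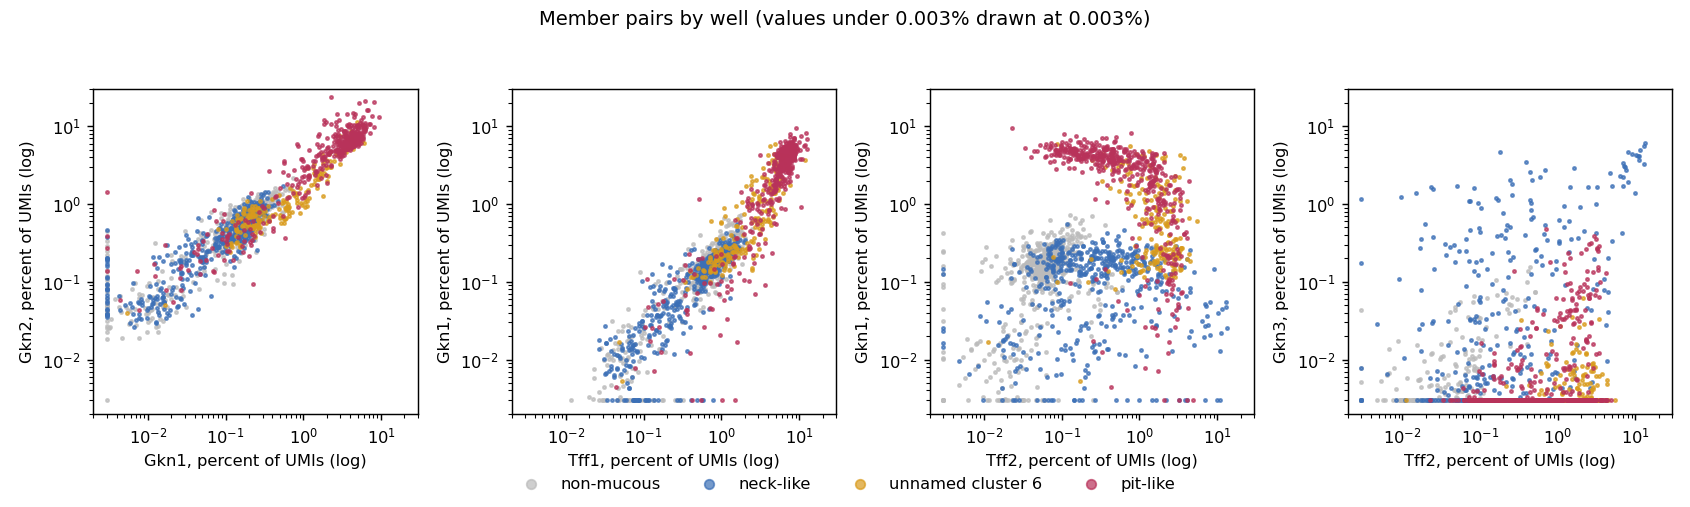
Pairs of members by well as a percentage of UMIs on log axes, coloured by class, with values under 0.003% drawn at 0.003%; wells of chief-like, proliferating-like and small unnamed clusters are not drawn. Gkn1 and Gkn2, and Tff1 and Gkn1, lie along a single band, while pit-like wells bend down from high Gkn1 at low Tff2 to low Gkn1 at high Tff2.

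**Figure D5:**
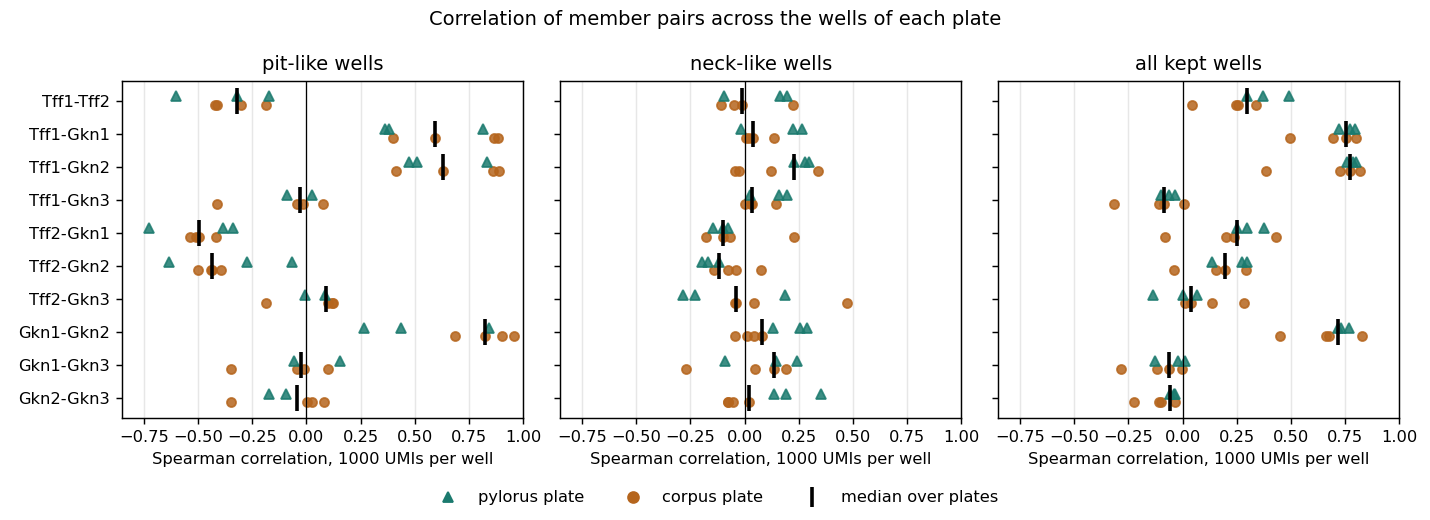
Spearman correlation of each pair of members across the wells of a plate, thinned to 1000 UMIs per well, in pit-like, neck-like and all kept wells, 1 point per plate (triangles, pylorus; circles, corpus) with the median over plates as a bar. In pit-like wells the 3 pairs of Tff2 with Tff1, Gkn1 and Gkn2 are negative in all 7 plates and the 3 pairs among those genes are positive.

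Overlaps were also counted between wells above a threshold. At 1% of UMIs, 1101 wells passed for Tff1, 767 for Gkn2, 535 for Tff2, 485 for Gkn1 and 50 for Gkn3. For Tff1 this threshold lies within the background. Its wells include 179 chief-like, 94 neck-like, 64 immune-like, 32 endocrine-like, 28 parietal-like and 10 tuft-like ones. Gkn2 had 144 chief-like, 31 immune-like, 19 neck-like, 7 endocrine-like and 5 parietal-like wells among its 767. Gkn1 had 3 chief-like wells and 0 neck-like, immune-like, endocrine-like or parietal-like ones. Gkn1 and Gkn2 shared 483 wells, which are 99.6% of the Gkn1 and 63.0% of the Gkn2 wells. Tff1 and Tff2 shared 359, 32.6% of the Tff1 and 67.1% of the Tff2 wells. Gkn3 shared 0 wells with Gkn1 or Gkn2 and 4 with Tff1. Tff2 and Gkn3 shared 27 wells, and these lay almost all in the library labelled corpus replicate 1: 26 of its 37 Gkn3 wells, against 1 of 13 in the other 6 plates.

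Wells were called led by a member where the 5 together made up at least 5% of UMIs. Tff1 led 423 wells, Gkn2 168, Tff2 95 and Gkn3 2, Gkn1 led none, and 1547 wells were led by no member. Pit-like wells were led by Tff1 in 53.6%, by Gkn2 in 30.2% and by Tff2 in 4.10%. Proliferating-like wells were led by Tff1 in 51.4%, by Tff2 in 9.59% and by Gkn2 in 4.11%, and unnamed wells in 31.7%, 13.1% and 8.02% for the same genes. Gkn2 led 24.8%, 7.69% and 7.86% of kept wells in pylorus plates and 11.5%, 2.15%, 1.94% and 1.20% in corpus plates. The means were 13.5% ± 9.83 and 4.20% ± 4.89. Corpus replicate 1 was the only corpus plate above the lowest pylorus plate. With all plates the two-sided exact permutation test gave p = 0.114 (adjusted p = 0.571 over 5 shares, and the smallest possible p is 0.0286). The other shares had adjusted p of 0.714 or more.

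Within pit-like cells, Tff1 per Gkn2 UMI was 0.798, 1.04 and 1.05 in pylorus plates and 1.10, 1.31, 1.15 and 1.17 in corpus plates. All pylorus plates lay under all corpus plates in this ratio, which was not tested. How many other pairs of genes separate the plates in this way was not counted. In background cells the ratio was 0.700, 1.09 and 1.40 in pylorus plates and 1.16, 1.12, 1.48 and 1.64 in corpus plates. Gkn2 per Gkn1 UMI was 1.38 to 2.27 in pit-like cells and 2.80 to 5.33 in background cells, higher in the background in all 7 plates. Wells with over 2048 of the 4096 UMI sequences in use numbered 206 for Tff1, 181 for Gkn2, 48 for Gkn1 and 0 for Tff2 and Gkn3. Correcting for repeated UMIs raised the summed counts 1.41 times for Tff1, 1.39 times for Gkn2, 1.25 times for Gkn1, 1.07 times for Tff2 and 1.04 times for Gkn3, beside 1.33 times over all genes.

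Between the regions no member passed the test with all plates. In limma fits across all tested genes with Benjamini-Hochberg adjustment, 0.0167% of 12003 genes were called over all kept cells, 0% of 8558 in pit-like, 0.0359% of 8350 in neck-like and 0% of 7116 in chief-like cells, and 0 of 5 members in each. At an unadjusted p under 0.05 the pit-like fit had 196 genes and the chief-like fit 184; Gkn3 was among those of the pit-like fit. Over all kept cells the pylorus minus corpus log2 difference was 0.64 ± 0.78 for Tff1, 0.09 ± 0.61 for Tff2, 1.09 ± 0.68 for Gkn1, 0.98 ± 0.75 for Gkn2 and -2.19 ± 1.02 for Gkn3 (SE; limma adjusted p = 1 for each). Without corpus replicate 1 Gkn3 had -1.25 ± 0.59 (adjusted p = 0.964). The contrasts between classes did not pass a test of their difference between regions either, with exact permutation adjusted p of 0.857 or more in 15 tests.

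In the 4 similar plates, 2 per region, the fits called 3.62% of 11978 genes over all kept cells, 2.84% in pit-like, 0.969% in neck-like and 0.601% in chief-like cells. There Tff2 was higher in chief-like cells of the pylorus, with 3746 and 3769 CPM in pylorus replicates 2 and 3, against 1442 and 1735 in corpus replicates 3 and 4. The difference was 1.23 ± 0.13 on the log2 scale (SE; limma adjusted p = 6.48e-06), and background was 680 and 641 in those pylorus plates and 573 and 1022 in those corpus plates. With the correction for repeated UMIs, chief-like cells held 1757 and 1843 CPM in those pylorus plates and 667 and 793 in those corpus plates, beside backgrounds of 625 and 577 in the pylorus plates and 453 and 919 in the corpus plates. The background of corpus replicate 4 included 10 tuft-like cells at 3665 CPM of Tff2 (3704 corrected). Its parietal-like cells held 689 (577 corrected) and its endocrine-like cells 631 (583 corrected), while immune-like cells held at most 980 uncorrected in any plate. The other members did not pass in these cells, with Tff1 at -0.20, Gkn1 at -0.04, Gkn2 at 0.12 and Gkn3 at -0.63. With all plates the Tff2 difference was 1.21 ± 0.67 (limma adjusted p = 0.999), with pylorus replicate 1 at 750 and corpus replicate 2 at 385 CPM. Corpus replicate 1, with 6 chief-like cells, was left out of the chief-like fits.

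Gkn3 also passed in pit-like cells of the 4 similar plates at -0.97 ± 0.28 (SE; limma adjusted p = 0.0378). Its levels there, 11.1 and 9.21 in pylorus plates and 13.5 and 31.3 in corpus plates, compare with a background of 6.75 and 3.84 in those pylorus plates and 7.92 and 42.5 in those corpus plates. They were above it by at most 2.40 times in 3 of the 4 plates and below it in corpus replicate 4. Over all kept cells of these plates Gkn3 had -1.17 ± 0.34 (limma adjusted p = 0.0853) and in neck-like cells -0.83 ± 0.28 (adjusted p = 0.287).

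The genes whose levels over 47 class-by-plate sums were most like each member were listed. These sums hold the class levels given above, so they are no separate test of the grouping. The 5 nearest genes of Tff1, Gkn1 and Gkn2 were the same for all 3: Aldh3a1, Dpcr1, Slc5a5, Syt8 and 2210407C18Rik, with Pearson r of 0.894 to 0.966 among 4101 genes. Tff1 itself had 0.984 with Gkn1 and 0.545 with Tff2. Tff2 had 0.558 with Gkn1, 0.522 with Gkn2 and 0.43 with Gkn3. The nearest genes of Tff2 were 2310042E22Rik (0.911), Bace2 (0.898), Cxcl17 (0.896), Pla2g10 (0.892) and Pon2 (0.890). Those of Gkn3 were Muc6 (0.911), the mucin glycosyltransferase A4gnt (0.877), Trim24 (0.790), Gfpt1 (0.779) and the mucin folding factor Agr2 (0.770). Dpcr1, Muc6 and A4gnt were among the markers that named the classes, and sums of a plate share its free RNA.

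Of the related genes listed, none passed the regional test in any of the 4 fits. Of 5 other trefoil-domain genes, 2 were tested over all kept cells: Tff3, the intestinal trefoil factor, at 28.4 CPM as a mean over the class-by-plate sums and highest in endocrine-like cells (174), and the lysosomal glucosidase gene Gaa at 50.4. Of 8 other BRICHOS-domain genes, 2 were tested, Itm2b at 914 and Itm2c at 233. Of 7 mucus genes, 6 were tested. Muc5ac averaged 609 CPM and 2169 in pit-like cells, and Muc1, a cell-surface mucin, averaged 354. In neck-like cells A4gnt had a log2 difference of -0.87 ± 0.20 and Muc6 of -1.19 ± 0.30 (SE), which did not pass (limma adjusted p = 0.655 and 0.807). Of 6 genes reported as trefoil factor receptors only Egfr, at 12.4 CPM, was abundant enough to test, and Cxcr4 was at 2.07.

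Of 10 genes of the secretory pathway 9 were tested, and the most abundant were the chaperone gene Hspa5 at 807 CPM and the transcription factor gene Xbp1 at 639, both highest in chief-like cells (1295 and 1240). All 15 listed transcription factors of gastric mucous cells were tested. Klf4 averaged 412 and Foxq1 235 CPM, and both were highest in pit-like cells, at 1121 and 498. Their medians between regions were 0.03 for the transcription factors, -0.04 for the secretory genes and -0.39 for the mucus genes on the log2 scale, beside 0.00 over all genes tested.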

How the data were processed

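Raw UMI counts per gene and well of 7 plates were deposited by the authors; per the submitters' processing notes the genome build was mm9, and the aligner and counting tool were not given in the sources used here. The deposited count tables carry no sample names in their columns, only well numbers, and their highest value is 4095, the limit of a 6-base UMI. Their unit could not be checked as counts by column, so limma was used in place of a count model. The 81 spike-in rows were left out, wells with at least 1000 UMIs were kept, and members were matched by symbol. UMIs count a transcript once at its 3' end, so levels were not divided by length.

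Wells were clustered without the 5 members with scanpy 1.11.5 and igraph 0.11.9 (Leiden, resolution 1.0, 2000 variable genes, 30 components, 15 neighbours). A class needed at least 3 markers, each in over 25% of the cells, and a mean log2 excess of at least 0.5. Meeting this was not enough in each case. Cluster 15, with 21 cells, held 6 immune markers at 4.75 but stayed unnamed and outside the background. Doublets were not called, since wells were sorted, and no batch correction was made. UMIs were summed per plate and class with at least 10 cells, scaled by trimmed mean of M-values, and log2(CPM + 2) was fitted with limma 3.58.1 (R 4.3.3, trend) after a low-count filter, pylorus minus corpus, with Benjamini-Hochberg adjustment over all genes and a threshold of 0.05. Single values were tested by exact permutation over plates (scipy 1.17.1). Floors are 3 counts and intervals 95% (Wilson), both for counting error only. The regression step was tested on simulated data. The genes named are the 5 members, the 5 most like each of them, and the 2 most abundant of each related list; Aqp5, Cela1 and Cldn2 were added after their values were seen. The members, lists and rules were chosen with earlier results of these data known.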

Additional observations from a re-analysis of the deposited data

Results flagged for a closer look

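Dixon's test was applied to 25 groups of 4 corpus plates, of which chance alone would pick about 1 in 20. It picked 9, all of them the library labelled corpus replicate 1 as the high value, and these are not independent since they share that plate. Over all kept cells they were Tff2 at 21936 and Gkn3 at 4269 CPM. In neck-like cells they were Tff2 at 44474 and Gkn3 at 20414 CPM, and in pit-like cells Gkn3 at 610. In endocrine-like cells, which make no mucus, they were Tff2 at 2778 and Gkn3 at 469 CPM. The last 2 were the shares of wells led by Tff2, at 16.9%, and by Gkn2, at 11.5%. The same library held the Gast UMIs and 6 chief-like cells, and the part of these in the values was not tested.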

How the results depend on the processing

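Over all kept cells 2 genes were called, with 0 without the low-count filter, 1 with wells thinned, 434 in the 4 similar plates and 0 to 2 leaving out each plate (2 without pylorus replicate 2, 0 without any other); without corpus and pylorus replicate 1, a choice made after seeing the data, there were 0. In pit-like cells 0 were called, with 2 at resolution 0.5, 1 with the members kept in the clustering, 240 in the 4 similar plates and 0 to 4 leaving out each plate (4 without pylorus replicate 1, 1 without corpus replicate 1). In neck-like cells 3 were called, with 0 thinned and 82 in the 4 similar plates. In chief-like cells 0 were called, with 3 without the filter, 43 in the 4 similar plates and 0 to 3 leaving out each plate (3 without pylorus replicate 1, 1 without corpus replicate 3). A replicate block gave 1, 1, 7 and 8 calls over all kept, pit-like, neck-like and chief-like cells; it was no main fit, since same-numbered plates deviated with correlations of 0.472, -0.154 and 0.545. The cause of these shifts was not tested. Directions turned in the 4 similar plates for Tff1 (-0.063 over all kept, -0.037 in pit-like, -0.25 in neck-like and -0.20 in chief-like cells), Gkn1 in chief-like cells (-0.041) and Tff2 pit-like minus neck-like (-0.11), and with thinning for Tff1 in chief-like cells (-0.016). Leaving out each plate, log2 ranges crossed 0, each time without corpus replicate 2: -0.30 to 0.57 for Tff2 over all kept cells, -0.19 to 1.31 for Tff1 in neck-like cells, -0.92 to 1.28 for Tff1, -0.70 to 1.75 for Gkn1 and -0.34 to 1.58 for Gkn2 in chief-like cells, and -0.064 to 0.59 for Tff2 pit-like minus neck-like. The pylorus minus corpus share of wells led by Tff2 ranged from -2.73 to 2.79 percentage points, positive without corpus replicate 1, and that led by none from -9.11 to 5.41, positive without corpus replicate 2. Unthinned correlations were 0.900 for Tff1 with Gkn1, 0.892 for Gkn1 with Gkn2, 0.175 for Tff2 with Gkn3, and 0.039, 0.060 and 0.036 for Gkn3 with Tff1, Gkn1 and Gkn2; Pearson's r for Gkn1 with Gkn2 was 0.853. Of the alternatives to single members and correlations not named here, none turned a direction. Depth limits Gkn3 most, which was seen in 3.52% to 52.9% of wells thinned to 1000 UMIs.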
